A study of Homo sapiens with 6 samples.

Results

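The IL6 and IL1 cytokine families were followed in BEAS-2B, a virus-transformed line from the lining of a human bronchus. The 10 genes were picked by name from the 61806 genes of the deposited table, and each was found once. In the IL6 family they are the ligands IL6, LIF and IL11 and the receptor chains IL6ST and OSMR. In the IL1 family they are the ligands IL1A, IL1B, IL33 and IL18 and the receptor IL1R1. The study holds 3 control libraries and 3 libraries of cells given 15-KETE, an oxidised metabolite of arachidonic acid. All 6 are of polyadenylated RNA and carry the replicate numbers 1 to 3 in both groups. The labels give no vehicle, dose, exposure time or passage, and do not say whether each replicate was its own culture. All p-values therefore rest on the spread among these 6 libraries, and that spread may be technical.

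Most IL6-family cytokines signal through receptor complexes that share IL6ST, which activates JAK kinases and the transcription factor STAT3. Bronchial epithelial cells make IL6, LIF and IL11 themselves and respond to oncostatin M through OSMR. IL1-family cytokines bind receptors that recruit the adaptor MYD88 and IRAK kinases, and this relay activates NF-kB and raises transcripts such as IL6 and CXCL8. IL1A and IL33 are alarmins that damaged epithelium releases. IL1B and IL18 are made as precursors that the protease CASP1 cuts. Transcript levels therefore say nothing of how much active IL1B or IL18 a cell releases.

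The libraries held between 16844781 and 22876808 counts. Of 10 epithelial marker genes, 5 had a mean above 1 FPKM (fragments scaled by exonic length and by the library total), with KRT7, KRT8 and KRT18 among them and KRT14 at 0 counts. Their summed level ran from 295 to 748 FPKM in control and from 262 to 535 in 15-KETE libraries. Markers of leukocytes summed to 3.71 to 8.79 FPKM over all libraries, nearly all of it CD14, and the defining leukocyte gene PTPRC had a mean of 0.01. Fibroblast markers summed to 21.25 to 30.76 FPKM, mostly THY1, and COL3A1 and LUM were at 0 counts. In bulk RNA, fewer cells that express a gene and less RNA per cell cannot be told apart. Control replicate 2 stood apart, with a chi-square per gene of 113 to 245 against the other libraries, and the tests of the members are given with and without it. The libraries numbered 3 were the closest pair, with a chi-square per gene of 2.39 between their counts, against 10.3 for the pair numbered 1 and 113 for the pair numbered 2. Each other library was nearer to 15-KETE replicate 2, at 39.8 to 93.6, than control replicate 2 was.

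IL6, IL6ST and IL1B differed between the replicate numbers and each ordered them in its own way, as described further on, and the reference sequences at their starts are shown for that reason. Each window holds 250 bases before and 50 bases after a RefSeq gene start in GRCh38.p14, read 5′ to 3′ on the strand of the gene. Capitals mark matches, on either strand, to the letters GGGA, any base and TTTCC (NF-kB), or to TGANTCA (AP-1), TTGCNNAA (C/EBP), TTCNNNGAA (STAT), and no matches overlap in these windows. The letters TATAAA of the core promoter box were searched as well. The IL6 window lies at chr7:22726950-22727249 on the plus strand, the IL6ST window at chr5:55994914-55995213 on the minus strand and the IL1B window at chr2:112836730-112837029 on the minus strand.
IL6: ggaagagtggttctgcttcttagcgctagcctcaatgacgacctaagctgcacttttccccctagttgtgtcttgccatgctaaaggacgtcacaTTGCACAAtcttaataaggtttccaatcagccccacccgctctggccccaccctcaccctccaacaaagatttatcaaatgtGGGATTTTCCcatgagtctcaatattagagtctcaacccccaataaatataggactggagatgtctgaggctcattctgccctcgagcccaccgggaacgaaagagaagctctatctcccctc
IL6ST: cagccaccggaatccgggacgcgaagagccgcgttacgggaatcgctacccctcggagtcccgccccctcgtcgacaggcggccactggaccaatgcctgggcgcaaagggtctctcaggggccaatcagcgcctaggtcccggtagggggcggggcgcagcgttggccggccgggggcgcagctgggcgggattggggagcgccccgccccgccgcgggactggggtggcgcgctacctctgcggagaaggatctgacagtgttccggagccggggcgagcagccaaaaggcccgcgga
IL1B: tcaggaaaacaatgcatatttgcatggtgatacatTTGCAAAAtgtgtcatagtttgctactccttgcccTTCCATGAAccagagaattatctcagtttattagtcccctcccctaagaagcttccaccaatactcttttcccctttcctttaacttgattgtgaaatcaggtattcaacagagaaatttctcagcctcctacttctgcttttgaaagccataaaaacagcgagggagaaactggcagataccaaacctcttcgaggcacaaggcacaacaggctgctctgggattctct

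In the IL6 window the NF-kB letters start at position -73 and the C/EBP letters at -155, with the first base of the RefSeq gene as 0. In the deposited table IL6 starts earlier, at 22725884, so this window lies inside the gene as it was counted. The IL1B window holds the C/EBP letters at -215 and the STAT letters at -180. The IL6ST window held none of the 5 motifs. Among 35116 windows of the same length, 0.558% held the NF-kB letters, 7.71% AP-1, 10.5% C/EBP, 7.66% STAT and 11.5% those of the core promoter box. A match is a description of the letters and not evidence of binding. The RefSeq table held windows for 8 of the 10 genes, and none for LIF or IL18.

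In the deposited table IL6 (ENSG00000136244) lies on chromosome 7 at 22725884 to 22732002, LIF (ENSG00000128342) on chromosome 22 at 30240453 to 30246759 and IL11 (ENSG00000095752) on chromosome 19 at 55364382 to 55370463. IL6ST (ENSG00000134352, 55935095 to 55995022) and OSMR (ENSG00000145623, 38845858 to 38945596) lie on chromosome 5. Chromosome 2 holds IL1A (ENSG00000115008, 112773925 to 112784493), IL1B (ENSG00000125538, 112829751 to 112836816) and IL1R1 (ENSG00000115594, 102064544 to 102179874). IL33 (ENSG00000137033) lies on chromosome 9 at 6215786 to 6257983 and IL18 (ENSG00000150782) on chromosome 11 at 112143253 to 112164096. Counts are per whole gene, over its exons.

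The receptor chains of the IL6 family were the most abundant of the 10 genes. Per length, OSMR, the chain that binds oncostatin M, had 36.1 ± 15.2 FPKM in control and 46.9 ± 2.61 in 15-KETE libraries (SD, n = 3 each here and below). IL6ST had 26.7 ± 20.1 and 31.4 ± 16.0 FPKM, and OSMR was above IL6ST in 6 of 6 libraries on this scale. Before scaling by length the order was the other way round, with 38253 counts for IL6ST over all libraries and 33793 for OSMR. Their mean levels exceeded those of 93.6% and 90.1% of the 15451 tested genes. The ligand IL6 had 8.60 ± 5.27 FPKM in control and 8.74 ± 6.02 in 15-KETE libraries. LIF, which signals through LIFR and IL6ST, had 6.67 ± 2.24 and 7.10 ± 1.35. IL11, whose own receptor chain is IL11RA, had 2.13 ± 0.333 and 2.14 ± 0.167 FPKM.

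The IL1 family was led by IL18, with 15.7 ± 7.30 FPKM in control and 12.2 ± 3.47 in 15-KETE libraries. IL1A had 3.52 ± 0.915 and 4.31 ± 1.35 FPKM, and IL1B had 2.21 ± 0.904 and 2.41 ± 1.02. IL1R1, the signalling receptor for IL1A and IL1B, had 1.91 ± 1.065 and 2.16 ± 0.613. IL33 had 0 counts in every library, and a count of 0 allows up to 3 counts, or 0.131 to 0.178 CPM (counts scaled to the library total) depending on the library. Ordered by mean FPKM over the 6 libraries, the genes ran OSMR, IL6ST, IL18, IL6, LIF, IL1A, IL1B, IL11, IL1R1 and IL33. The ranges of neighbours in that order overlapped at each step down to IL1R1, and IL1R1 and IL33 did not overlap.

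Of the other family ligands, most were near or at 0. CLCF1, a ligand of the CNTF receptor, had a mean of 2.23 FPKM, CTF1 had 0.895 and CNTF 0.712. OSM, the ligand of OSMR, had 2 counts over all 6 libraries, and IL27 and IL31 had 0. In the IL1 family, IL1RN, the receptor antagonist, had 0.137 FPKM. IL36A, IL36RN and IL1F10 had 0 counts, IL36G 1, IL36B 2 and IL37 7.

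Receptors were present for ligands of both families. LIFR had a mean of 8.10 FPKM, IL6R 4.85 and IL27RA 3.98, while CNTFR, IL11RA and IL31RA lay below 1. IL1RAP, the accessory chain of IL1R1, had 2.81 FPKM and the IL33 receptor IL1RL1 1.97. IL18R1, the IL18 receptor chain, had 1.148 FPKM, but its partner IL18RAP had 12 counts over all libraries. IL1RL1 (102311502 to 102352037) and IL18R1 (102311529 to 102398777) overlap on the plus strand of chromosome 2. Reads in the overlap may have been shared or dropped, so both levels are uncertain. SIGIRR, an inhibitory receptor, had 2.11 FPKM and IL18BP, the secreted IL18 binder, 1.99. The decoy receptor IL1R2 had 1 count.

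**Figure D1:**
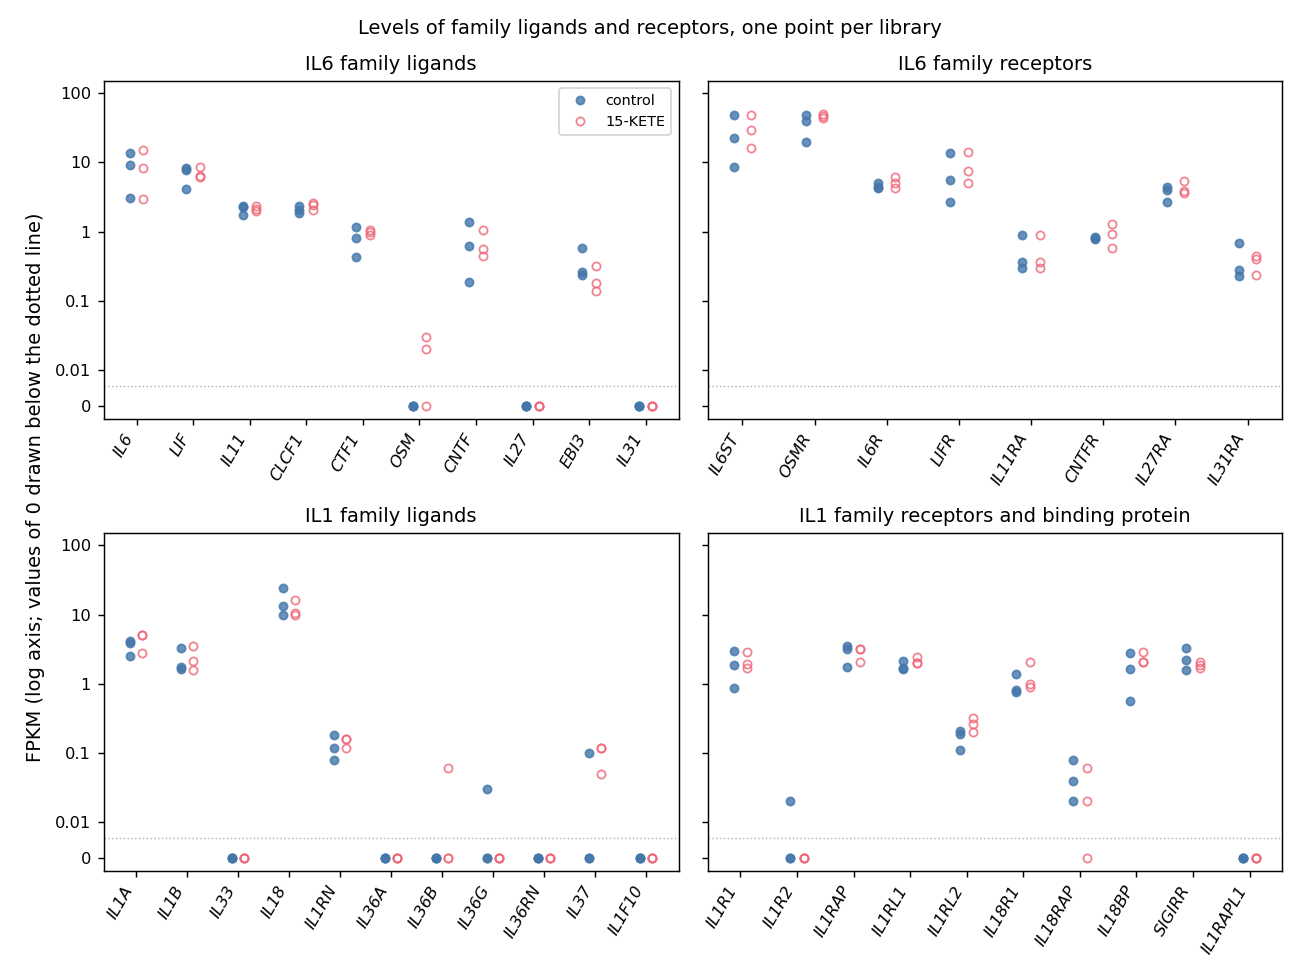
FPKM of ligands and receptors of both families on a log axis, with 1 point per library (filled blue, control, and open red, 15-KETE) and values of 0 drawn below the dotted line. OSMR and IL6ST lay highest, with means of 41.5 and 29.04 FPKM over the 6 libraries, and IL33 lay at 0 in all of them.

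The comparison of 15-KETE with control asked whether the metabolite changes these transcripts. None of the 9 genes with enough counts passed edgeR's quasi-likelihood test, each with an adjusted p of 0.9996 over 15451 genes, and none had an unadjusted p below 0.05. DESeq2 and limma-voom called 0 of the 9 as well. Over all genes 0% were called, with 25 of 15451 at an unadjusted p below 0.05 in edgeR. That is fewer than such a cut-off gives where no gene changes. This fit has no term for the replicate number, so differences between numbers add to its error and can hide a change. Fold changes with an SE are from this fit unless a replicate block is named. The control and 15-KETE groups overlapped in each of the 9 genes, where 2.3% of all tested genes did not overlap. The median log2 fold change of the 9 genes was 0.06, with 6 above 0 and 3 below, and that of all tested genes was -0.00. IL33 could not be tested.

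Among the IL6-family ligands, values are given as CPM with library totals scaled by trimmed means. IL6 had 12.7, 47.3 and 55.7 CPM in control replicates 1, 2 and 3, and 12.4, 36.0 and 61.7 in the 15-KETE libraries of the same numbers. In both groups replicate 1 was lowest and replicate 3 highest. The log2 fold change was -0.07 ± 0.623 (SE), with a 95% interval of 0.359-fold to 2.52-fold. LIF had 28.9, 18.7 and 30.4 CPM in control and 23.7, 24.5 and 31.9 in 15-KETE libraries. The control replicate 2 value was the lowest of the 6, and the log2 fold change was 0.04 ± 0.281 (SE). IL11 had 6.19, 7.08 and 4.48 CPM in control and 5.43, 5.39 and 5.91 in 15-KETE libraries, all 3 of the latter within the control range. Its log2 fold change was -0.09 ± 0.297 (SE).

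The receptor chains of that family had positive estimates that were smaller or negative without control replicate 2. IL6ST had 269, 123 and 558 CPM in control and 345, 198 and 554 in 15-KETE libraries, with the lowest value in control replicate 2. Its log2 fold change was 0.21 ± 0.542 (SE), with a 95% interval of 0.494-fold to 2.70-fold, and -0.18 without control replicate 2. OSMR had 277, 164 and 337 CPM in control and 304, 342 and 338 in 15-KETE libraries. Control replicate 2 was again the lowest, and the other 5 values lay between 277 and 342. The log2 fold change was 0.34 ± 0.301 (SE) and 0.10 without control replicate 2. Within the pairs numbered 1, 2 and 3 the log2 differences of OSMR were 0.14, 1.06 and 0.00. The gene RICTOR overlaps OSMR on the other strand, so reads of these genes can be shared if counting ignored strand.

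In the IL1 family, IL18 had the estimate farthest from 0. It had 25.2, 73.2 and 32.7 CPM in control and 24.3, 42.5 and 26.3 in 15-KETE libraries, with both highest values in the libraries numbered 2. The log2 fold change was -0.49 ± 0.421 (SE), with differences of -0.05, -0.78 and -0.31 within pairs 1, 2 and 3, and it was 0.11 without control replicate 2. IL1A had 7.58, 5.89 and 8.11 CPM in control and 9.94, 5.62 and 9.71 in 15-KETE libraries. The 15-KETE value was the higher one in pairs 1 and 3 and the lower one in pair 2 (0.23 ± 0.320, SE). IL1B had 9.50, 5.83 and 4.94 CPM in control and 10.3, 4.82 and 6.02 in 15-KETE libraries (0.06 ± 0.388, SE). IL1R1 had 13.02, 7.24 and 20.4 CPM in control and 13.3, 12.1 and 19.4 in 15-KETE libraries (0.14 ± 0.390, SE). Without control replicate 2 the log2 fold changes were 0.11 for IL6, -0.15 for LIF, 0.06 for IL11, 0.10 for IL1A, -0.04 for IL1B and -0.16 for IL1R1, and again 0 of the 9 passed.

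**Figure D2:**
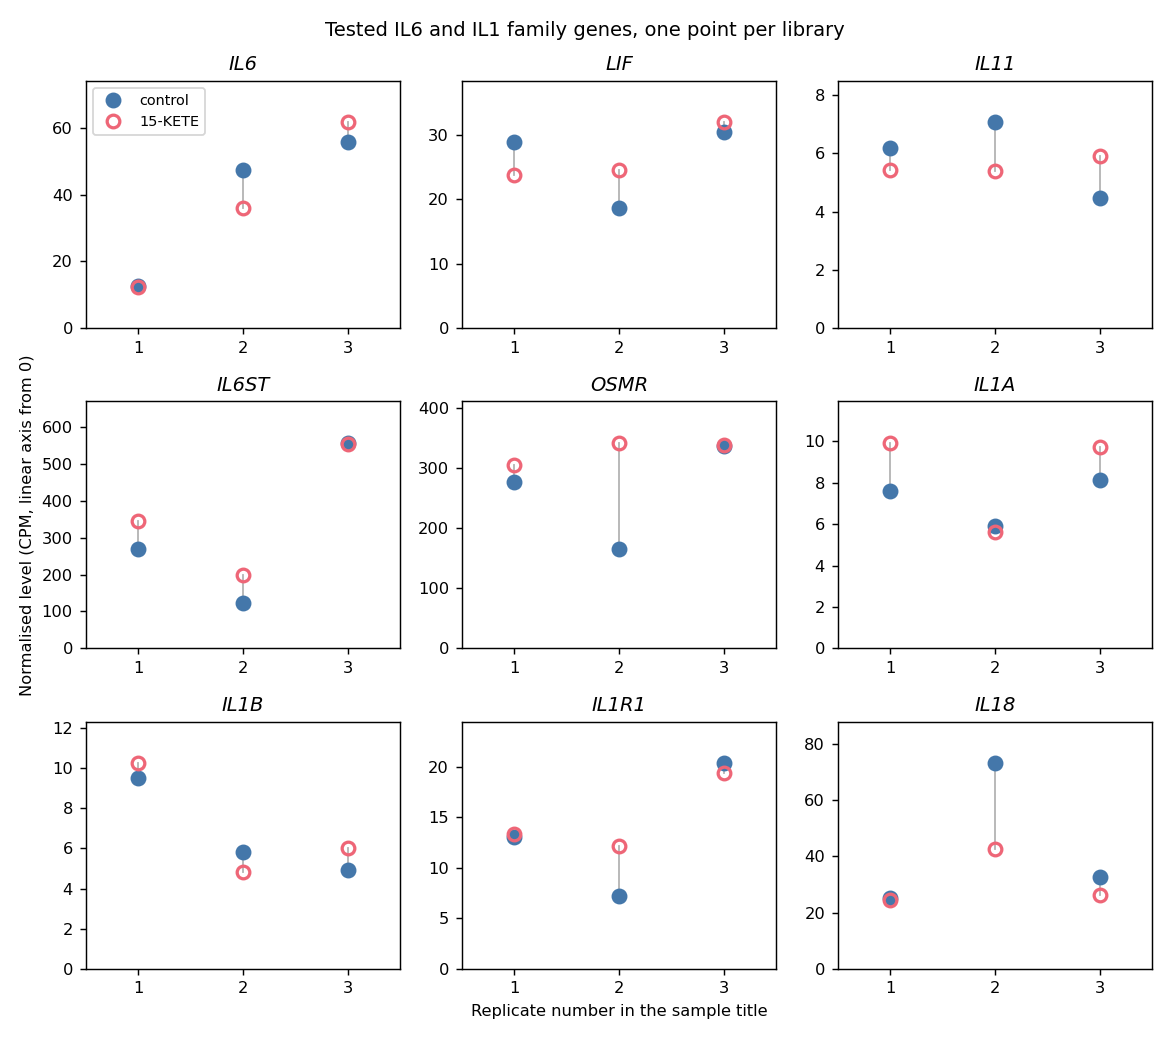
CPM of the 9 tested genes on linear axes from 0, with 1 point per library by replicate number (filled blue, control, and open red, 15-KETE) and grey lines joining libraries of the same number. IL6 lay at 12.4 to 12.7 CPM in both libraries numbered 1 and at 55.7 to 61.7 in both numbered 3.

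With the replicate number as a block, the 95% intervals narrowed and again 0 of the 9 genes passed, against 0% of all genes called. In this edgeR fit 0 of the 9 had an unadjusted p below 0.05, and 727 of all 15451 genes did. Such a cut-off gives about as many where no gene changes. The interval of IL6 then ran from 0.720-fold to 1.22-fold and that of LIF from 0.791-fold to 1.37-fold. For IL11 it ran from 0.672-fold to 1.35-fold, and for IL1B from 0.746-fold to 1.42-fold. IL18 had the smallest unadjusted p of the 9 in this fit, 0.0563, with a log2 fold change of -0.39 ± 0.184 (SE) and an edgeR adjusted p of 0.695. IL6ST had 0.35 ± 0.185 and OSMR 0.39 ± 0.213 (SE), also with an adjusted p of 0.695. Without both libraries numbered 2 these 3 estimates were -0.19, 0.17 and 0.06.

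The pairs numbered 1 and 2 also differed by gene length. In pair 2 the median log2 difference, 15-KETE minus control, was -0.50 over the shortest of 5 length classes of the tested genes (62 to 2423 exonic bases) and 0.38 over the longest (8590 to 205012 bases). In pair 1 the medians rose from -0.11 in the shortest class to 0.12 in the longest, and in pair 3 those of the 5 length classes lay between -0.01 and 0.01. Among the members, IL18 has 2605 exonic bases, OSMR 7174 and IL6ST 12060. With the length trend of each library removed, in the blocked fit, the log2 fold changes were -0.25 for IL18, 0.31 for OSMR and 0.17 for IL6ST. Those of IL6 (-0.07) and IL1R1 (0.14) also moved toward 0. Others moved away from 0, IL1A from 0.20 to 0.37, IL1B from 0.04 to 0.14 and LIF from 0.06 to 0.10. IL11 went from -0.07 to 0.06, and 0 of the 9 passed.

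**Figure D3:**
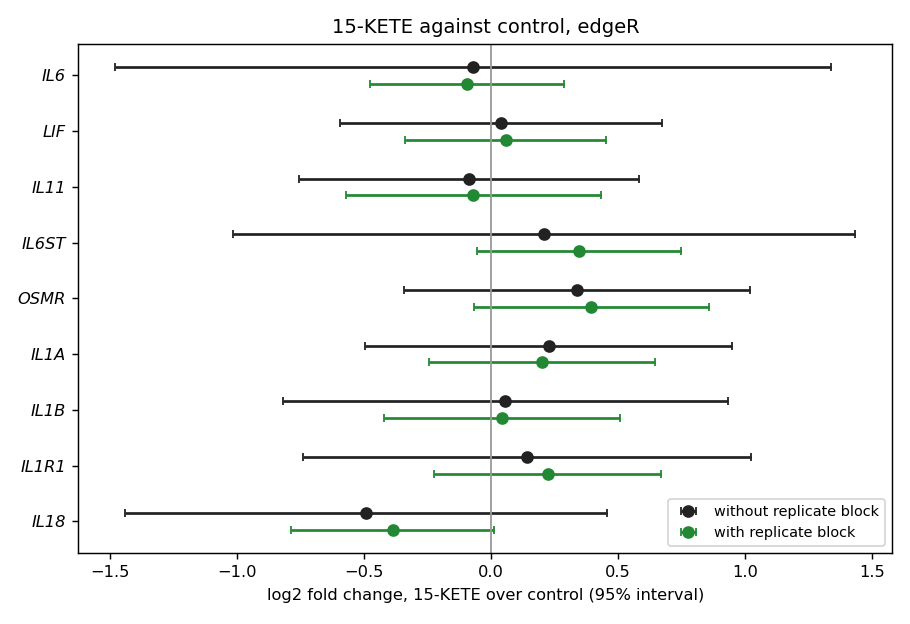
log2 fold changes of 15-KETE over control with 95% intervals for the 9 tested genes, from the fit without (black) and with (green) the replicate number as a block. Each interval holds 0, and that of IL6 narrows from -1.48 to 1.34 without the block to -0.47 to 0.29 with it.

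Several of these genes had levels that followed the replicate number of the library. In a fit with the treatment as a covariate, 5 of the 9 genes differed between replicate numbers (edgeR adjusted p below 0.05), where 33.4% of all 15451 genes were called. They were IL6, IL6ST, IL18, IL1R1 and IL1B, and without control replicate 2 the same test called 6 members, these 5 and IL1A, and 52.2% of all genes. The labels do not say what a number stands for, and each number rests on 2 libraries. The median span, the log2 difference between the highest and lowest number, was 0.89 over the 9 genes and 0.70 over all tested genes.

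IL6 had the widest span of the 9 tested members, 4.68-fold from number 1 to number 3 (log2 2.23, edgeR adjusted p = 0.000479), wider than in 98.3% of the tested genes. The mean of its 2 libraries was 12.6 CPM for number 1, 41.6 for number 2 and 58.7 for number 3, and no 2 libraries of 1 number differed by more than 0.39 on the log2 scale. IL6ST spanned 3.56-fold (edgeR adjusted p = 0.00111), with 161 CPM for number 2, 307 for number 1 and 556 for number 3. So the ligand was lowest in number 1 and its shared receptor chain in number 2, and both were highest in number 3. Leaving out any 1 library left both genes past the threshold, with IL6 at log2 2.07 to 2.42 and IL6ST at 1.57 to 2.14.

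IL18 spanned 2.26-fold (edgeR adjusted p = 0.00550), with 24.8 CPM for number 1, 29.5 for number 3 and 57.8 for number 2. IL1R1 spanned 2.08-fold (edgeR adjusted p = 0.0198), from 9.68 CPM in number 2 to 19.9 in number 3, and did not pass without control replicate 3 (adjusted p = 0.148). IL1B did not order numbers 2 and 3 alike in the groups, with 5.83 and 4.94 CPM in control and 4.82 and 6.02 in 15-KETE libraries. Spanning 1.86-fold (edgeR adjusted p = 0.0261), it had 9.88 CPM for number 1, 5.33 for number 2 and 5.48 for number 3. It did not pass without control replicate 1, control replicate 3 or 15-KETE replicate 1, where the adjusted p was 0.236, 0.0650 and 0.301. Thus IL1B was highest in the libraries in which IL6 was lowest.

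LIF, IL11, OSMR and IL1A did not pass this test, with spans of log2 0.53, 0.25, 0.48 and 0.62 and edgeR adjusted p of 0.172, 0.742, 0.311 and 0.111. Without 15-KETE replicate 2, LIF and OSMR passed (log2 0.78 and 0.99), where 67% of all genes were called. Without control replicate 2, IL1A passed (0.81), where 52.2% were called. The share of genes called rose with abundance, from 11.2% in the lowest of 5 CPM classes to 42.7% in the highest. The rarest tested members, IL11, IL1A and IL1B, lay in the second lowest class, where 31.1% were called. With the length trend of each library removed, a trend that ran from a median of -0.40 in the shortest to 0.49 in the longest class for number 3 minus number 2, the spans were log2 2.26 for IL6, 1.35 for IL6ST, 0.93 for IL18, 0.85 for IL1R1 and 1.09 for IL1B, all 5 passed, and IL1A passed as well (1.06).

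**Figure D4:**
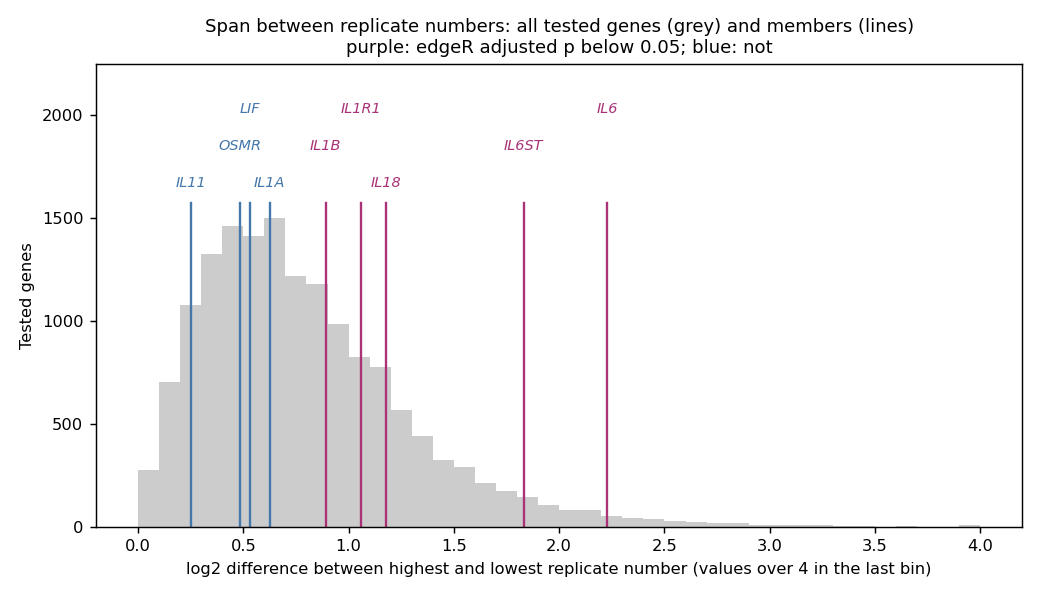
Number of tested genes (grey bars) by the log2 difference between their highest and lowest replicate number, with the 9 members as vertical lines, purple where the edgeR adjusted p was below 0.05 and blue where it was not. IL6 (2.23) and IL6ST (1.83) lay in the upper tail, and IL11 (0.25) near the lower end.

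Other receptors of the IL6 family differed between numbers in 2 of 6 tested genes, against 33.4% of all genes. LIFR, which pairs with IL6ST to bind LIF, had 65.1, 38.9 and 161 CPM in control and 86.5, 61.7 and 164 in 15-KETE libraries. Its order of numbers was that of IL6ST, and it spanned 3.31-fold (edgeR adjusted p = 0.000892). IL11RA was highest in number 3, with 4.48 and 4.45 CPM against 1.504 to 1.901 in the other libraries (edgeR adjusted p = 0.0113). IL6R, which binds IL6 itself, ran from 28.4 to 43.7 CPM and did not pass (edgeR adjusted p = 0.235). Of 3 tested other ligands, CNTF passed (log2 span 1.77, edgeR adjusted p = 0.0375) and CLCF1 and CTF1 did not. The median log2 fold change of 15-KETE over control was 0.11 over the 6 receptors and 0.11 over the 3 ligands, with 0 called in either list. CTF1 had 0.20 ± 0.456 and IL27RA 0.13 ± 0.278 (SE), both with an edgeR adjusted p of 0.9996.

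In the JAK-STAT3 relay, 3 of 9 tested genes differed between numbers, a share like the 33.4% of all genes. JAK2, a kinase bound to IL6ST, spanned 2.22-fold with number 3 highest (edgeR adjusted p = 0.00439), and the phosphatase PTPN11 1.85-fold with number 3 highest (0.0211). SOCS3, which STAT3 induces and which shuts off IL6ST, had its highest level in number 2, at 47.7 CPM in control and 53.1 in 15-KETE, against 28.0 to 37.6 in the other libraries (edgeR adjusted p = 0.0474). STAT3 itself, at 158 to 239 CPM, did not pass (edgeR adjusted p = 0.381). JAK1 had a log2 fold change of 0.24 ± 0.290 (SE) for 15-KETE, with 67.5 CPM in control replicate 2 and 114 to 133 in the other libraries. The list median was 0.14 with 0 called, and the medians within pairs 1, 2 and 3 were -0.03, 0.33 and 0.02.

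Of the STAT3-responsive genes, 12 of 14 tested members differed between numbers, against 33.4% of all genes. Of these 12, 9 were highest in number 2, as were 44% of all the genes called. They included the factors CEBPB (2.37-fold span), CEBPD (1.81-fold), JUNB (2.19-fold) and MYC (2.27-fold), with edgeR adjusted p of 0.00463, 0.0306, 0.0157 and 0.00409. In that order they had 239, 68.8, 96.6 and 266 CPM in control replicate 2 and 133, 37.6, 58.6 and 202 in 15-KETE replicate 2. The remaining libraries reached at most 99.8, 33.1, 56.5 and 140 CPM. CEBPB, CEBPD and JUNB lie in the shortest length class, where the median of number 3 minus number 2 was log2 -0.40. CCND1, a cyclin of the G1 phase, spanned 3.82-fold with number 1 lowest (edgeR adjusted p = 0.000525). The kinase gene PIM1 was highest in number 1, at 23.2 and 27.5 CPM, and lowest in number 3, at 8.28 and 8.62 (edgeR adjusted p = 0.00193). The acute phase genes FGB, FGG and LBP had 3, 6 and 4 counts over all libraries. The direction for 15-KETE was mixed, with 6 members above 0, 8 below, a median of -0.10 and 0 called, and CEBPD had -0.45 ± 0.379 (SE). Many of these genes also respond to growth signals, so the list is not specific to the IL6 family.

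Of the IL1 receptor relay, 9 of 15 genes differed between numbers, against 33.4% of all genes. Of these 9, 6 were highest in number 3 and 6 lowest in number 2, where the shares among all the genes called were 41.1% and 45.1%. TAB3, a scaffold of the kinase MAP3K7, spanned 2.76-fold (edgeR adjusted p = 0.00254) and IRAK3, an inhibitory kinase homologue, 2.07-fold (0.0135). The adaptor MYD88 was lowest in number 1, at 17.7 and 17.2 CPM against 24.6 to 32.0 in the others (edgeR adjusted p = 0.0419), and IRAK1 was highest in number 2 (1.84-fold, 0.0201). IRAK3 had a log2 fold change of 0.28 ± 0.370 (SE) for 15-KETE, with 52.3 CPM in control replicate 2 and 90.3 to 143 in the other libraries. The median for 15-KETE was 0.09, with 12 genes above 0 and 0 called.

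Of the IL1-responsive genes, 8 of 13 tested members differed between numbers, against 33.4% of all genes. Of these 8, 6 were lowest in number 1, as IL6 was, and so were 18.4% of all the genes called. CXCL1, a neutrophil chemokine, spanned 5.17-fold (edgeR adjusted p = 0.000485), with 39.0 and 30.5 CPM in number 1 and 128 to 238 in the other libraries. CXCL8 had 61.7 and 54.3 CPM in number 1 and 105 to 153 elsewhere (edgeR adjusted p = 0.00439). CSF3, the granulocyte growth factor, had 19.6 and 16.4 CPM in number 1 and 41.9 to 66.8 elsewhere (edgeR adjusted p = 0.00180). CXCL2, CCL2 and NFKBIA, the inhibitor of NF-kB, were also lowest in number 1, whereas BIRC3 and NFKBIZ were lowest in number 2. The median for 15-KETE was -0.11 with 0 called, and NFKBIA had a log2 fold change of -0.33 ± 0.335 (SE).

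Genes that mature the IL1 family differed between numbers in 4 of 11 tested members, a share near the 33.4% of all genes. CASP1, which cuts the IL1B and IL18 precursors, had 26.7 and 28.6 CPM in number 1 and 38.5 to 51.7 elsewhere (edgeR adjusted p = 0.0443). PYCARD, the inflammasome adaptor, had 16.0 CPM in control replicate 2 and 3.36 to 7.16 in the other 5 libraries, a span of 3.19-fold (edgeR adjusted p = 0.00680). Its log2 fold change for 15-KETE was -0.66 ± 0.545 (SE), and the list median was -0.13 with 0 called. The inflammasome sensors NLRP3 and AIM2 had 24 and 13 counts over all libraries, and NLRC4 had 39. Of the other IL1-family receptors, IL18R1 (2.00-fold span, edgeR adjusted p = 0.0309) and IL1RAP (1.55-fold, 0.0486) differed between numbers among 5 tested. The counts of IL18R1 are subject to its overlap with IL1RL1. SIGIRR had a log2 fold change of -0.46 ± 0.375 (SE) for 15-KETE, with 13.5 CPM in control replicate 2 and 5.22 to 7.58 in the other libraries. The median of these 5 receptors was 0.15 and 0 were called. IL1RN was the only other IL1-family ligand with enough counts to test, at 0.16 ± 0.524 (SE), and its span of log2 0.78 did not pass (edgeR adjusted p = 0.550).

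Regulators of cytokine transcripts and receptors were measured as well. Of 10 genes that control the turnover of cytokine mRNA, 5 differed between numbers, against 33.4% of all genes. ZFP36L2, a decay factor, spanned 2.35-fold with number 1 lowest (edgeR adjusted p = 0.00290). The decay factors ZFP36 and ZC3H12A, which act on IL6 mRNA, did not pass (edgeR adjusted p = 0.163 and 0.173). HNRNPD had a log2 fold change of -0.26 ± 0.333 (SE) for 15-KETE, and the list median was -0.06. Of 4 tested genes of receptor shedding, 1 differed between numbers, the protease ADAM10 (1.92-fold, edgeR adjusted p = 0.0120), again against 33.4%. ADAM17, which sheds IL6R, had a log2 fold change of 0.24 ± 0.312 (SE) for 15-KETE, and the median of the 4 was 0.11. None of these genes passed the test of 15-KETE against control.

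**Figure D5:**
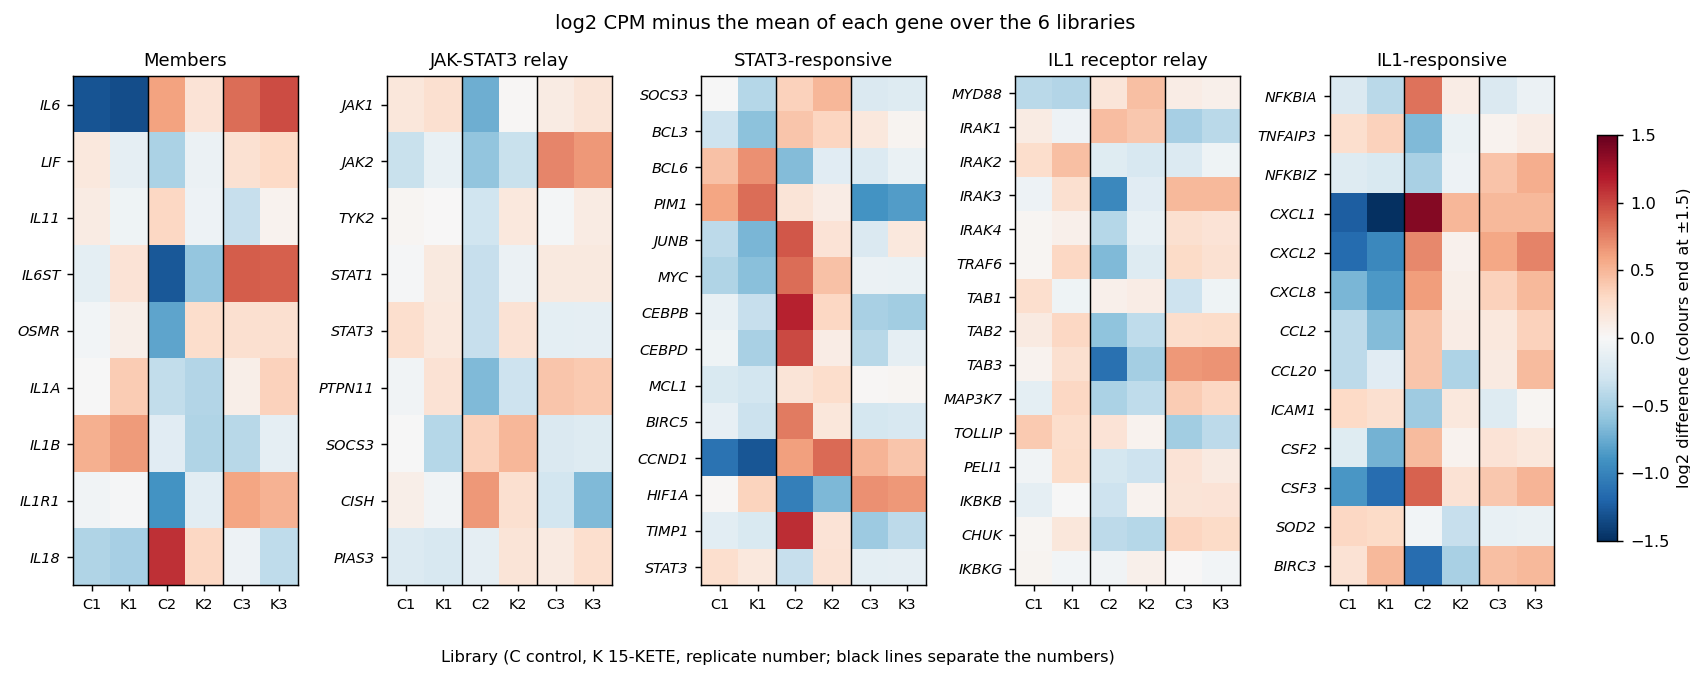
log2 CPM minus the mean of each gene over the 6 libraries, for the 9 tested members and 4 lists of relay and response genes, with libraries ordered by replicate number (C, control, and K, 15-KETE) and colours ending at ±1.5. IL6 is blue in both libraries numbered 1, as are CXCL1, CXCL2 and CSF3, the libraries numbered 3 look alike, and control replicate 2 differs from 15-KETE replicate 2 in many rows.

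Genes whose pattern over the 6 libraries was most like that of IL6 were sought among 11035 genes with a mean of at least 5 CPM. Likeness was the root mean square difference of log2 CPM after each gene was centred on its mean. The 5 nearest were the chemokine gene CXCL2 (0.227), the immediate early gene FOS (0.249), the peroxisomal transporter gene ABCD2 (0.283), the splicing factor gene SFPQ (0.291) and CAVIN2 (0.297), against a median of 1.02 over all genes compared. FOS had 6.35, 20.4 and 28.2 CPM in control and 5.70, 22.3 and 44.1 in 15-KETE libraries. CXCL2 had 8.33, 30.5 and 27.7 CPM in control and 9.51, 19.5 and 31.1 in 15-KETE libraries. The order of numbers was that of IL6 for FOS in each group, and for CXCL2 in the 15-KETE libraries only. These genes were chosen for their likeness to IL6, so a shared order follows from that choice. For IL1B the nearest were GEM (0.0986), RBM15 (0.109), ZNF697 (0.112), ZNF627 (0.114) and SMIM14 (0.115), against a median of 0.530. These libraries share replicate number and depth within pairs, so likeness over 6 libraries is a description only.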

How the data were processed

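RNA of BEAS-2B cells was measured in 3 control and 3 15-KETE libraries, grouped and numbered by their titles. Polyadenylated RNA went into SMARTer libraries, per the labels' protocols. HISAT2 2.2.1, HTSeq 0.6.1 and cutadapt 1.9.1 are among the tools listed, without a role, per the submitters' processing notes. The genome build and the strand setting of counting are not given in the sources used here. The authors deposited 1 table with raw counts per gene and FPKM, and 100% of the FPKM lay within 0.01 of values recomputed from count, exonic size and library total. Gene starts or ends matched GENCODE 29 in GRCh38 for 89.6% of shared genes. Overlapping genes on the other strand held few counts beside a member, apart from RICTOR at OSMR.

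The filterByExpr rule on low counts kept 15451 genes and 9 of the 10 members, libraries were scaled by trimmed means of M values, and edgeR 4.0.16's quasi-likelihood test in R 4.3.3 compared the groups in 1 fit of the 6 libraries. The threshold was a Benjamini-Hochberg adjusted p of 0.05, taken across every tested gene. A second fit tested the replicate-number terms beside treatment. Deviations from group means correlated at 0.570, 0.646 and 0.722 between same-numbered libraries, so the numbers were taken to pair them, from the titles and this check. The chi-square per gene was less clear for number 2. Control replicate 2 was nearest to 15-KETE replicate 2 (113), but 15-KETE replicate 2 was nearest to control replicate 1 (39.8). The scripts were tested on simulated data. Alternatives used DESeq2 1.42.0, limma 3.58.1, other scaling and filters, and left out libraries. Removing each library's exonic length trend was chosen after seeing the data. The members and gene lists were chosen with earlier results of these data known, and 1 gene of the list of other IL6-family ligands is not reported here and was left out of its counts. Named genes are the members, the genes of smallest p in each list for either test, list genes that passed or lay at or near 0, and the 5 genes most like IL6 and IL1B. Other genes named (list genes that failed both tests, markers and RICTOR) were chosen after their values were seen. Intervals and floors cover the spread between libraries or counting error only.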

Additional observations from a re-analysis of the deposited data

How the results depend on the processing

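Of 15-KETE against control, 0 of 9 members passed under any alternative, with the replicate block (0), other scaling, DESeq2, limma, other filters, the length trend removed or a library or pair left out. Over all genes the count stayed 0, except in the blocked fit without a pair, and ran from 0 to 12 over the fits that left out libraries. Estimates near 0 changed sign. IL6 became 0.023 with no scaling. IL11 became 0.0091 with no scaling, 0.010 on log2(FPKM + 1), 0.067 with the length trend removed and 0.063 with that and the replicate block, and its span between numbers became -0.087 with the length trend removed. With 1 library left out, log2 fold changes ran from -0.67 to 0.36 for IL6, -0.15 to 0.19 for LIF, -0.22 to 0.064 for IL11, -0.23 to 0.92 for IL6ST, -0.31 to 0.40 for IL1B, -0.16 to 0.58 for IL1R1 and -0.79 to 0.11 for IL18. OSMR and IL1A stayed above 0. With the replicate block and a pair left out, IL11 became 0.0097 without pair 1, IL6 0.067, LIF -0.11, IL11 0.086 and IL1R1 -0.030 without pair 2, and IL1B -0.054 without pair 3. The span of IL11 ran from -0.11 to 0.56. Between replicate numbers, 3113 genes passed without the treatment term, where IL1R1 did not (edgeR adjusted p = 0.0531), against 5163. Leaving out 1 library gave 2346 (control replicate 3) to 10707 (15-KETE replicate 2) genes and 3 to 7 members. In those fits 1 residual degree of freedom was left and the lone library of a number was assumed to vary like the others. The causes were not tested.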
